A study of Mus musculus with 12 samples.

Results

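Cytochrome P450 genes were followed across liver, cortex and cerebellum of 1 adult NMR-1 mouse. The members were all probe sets whose platform annotation gives a single gene symbol that starts with Cyp and a digit, and this rule used no measured value. It found 47 probe sets of 40 genes among 12422 probe sets tested. A further 7 probe sets carried several P450 symbols and were not members. The tissues were profiled on MG_U74Av2 arrays, oligonucleotide arrays of mouse transcripts made by Affymetrix. In the 3X groups (liver, cortex and cerebellum, 3 arrays each), 1 ng of RNA went through 3 linear amplifications, in vitro transcription steps that copy RNA in proportion to its amount. In the 1X groups (the same tissues, 1 array each), 5 µg of RNA went through a single linear amplification by the standard protocol. The 3X arrays of a tissue are technical replicates of 1 animal, so p-values measure the spread between arrays and not between mice. The 3X and 1X procedures differ in RNA input, kit and number of rounds, which cannot be told apart.

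P450 enzymes are heme proteins that insert an oxygen atom into lipophilic molecules. Most sit in the endoplasmic reticulum and take electrons from P450 oxidoreductase, while a few sit in mitochondria and use the adrenodoxin system. Families 1 to 3 act mainly on drugs, foreign compounds and steroids and are known above all from hepatocytes. Family 4 hydroxylates fatty acids, families 7 and 8 make bile acids from cholesterol, and others make steroid hormones or turn over retinoic acid and vitamin D.

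Values are the authors' RMA signals on the log2 scale, in which 1 unit is a doubling of signal, and differences carry the standard error (SE) of the fit. Medians of the arrays lay between 3.45 and 3.48. A value at or below the median of its array is called dim here, and no fold is given against a dim value, since RMA gives no detection call. Adjusted p-values are from limma with Benjamini-Hochberg adjustment over all 12422 probe sets, and called means an adjusted p under 0.05. The labels of liver against brain were borne out by marker genes, as all 12 measured hepatocyte genes were called higher in liver than in brain and 7 of 9 neuron genes lower. No marker list was made to tell cortex from cerebellum, so those labels were not checked against each other. Among kidney genes, 6 of 20 were called lower in cortex than in cerebellum, against 0.628% of all probe sets. Liver replicate 3 stood apart, and its signal was above both other 3X liver arrays by at least 0.5 for 6 of the 47 P450 probe sets, against 5.35% of all probe sets. Those were Cyp2b9, Cyp2c38, Cyp2c70, Cyp2e1, Cyp3a11 and the _s_at probe set of Cyp2d10. In whole tissue, fewer cells of a type and less RNA per cell cannot be told apart. The P450 subfamilies hold near-identical genes, so a probe set may also bind RNA of a sister gene, which was not tested.

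On the 3X arrays, 24 of the 47 P450 probe sets were called higher in liver than in the mean of cortex and cerebellum and none lower. Over all probe sets, 20.4% were called in either direction, 8.17% with liver higher and 12.3% with liver lower. The median difference was 0.30 over the members and 0.01 over all probe sets. All 24 also had every 3X liver array above all 6 brain arrays, and 7.25% of all probe sets were both called higher and free of overlap. Against cortex alone 22 members were called higher (6.64% of all probe sets) and against cerebellum alone 24 (6.38%). Both comparisons share the liver arrays. By role, 19 of the 27 probe sets of families 1 to 3 were called higher, 2 of 7 of family 4, 2 of 4 of bile acid and oxysterol enzymes, and 1 of 4 of steroid hormone synthesis. The 4 probe sets of retinoic acid and vitamin D enzymes and the single one of sterol synthesis gave no call.

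**Figure D1:**
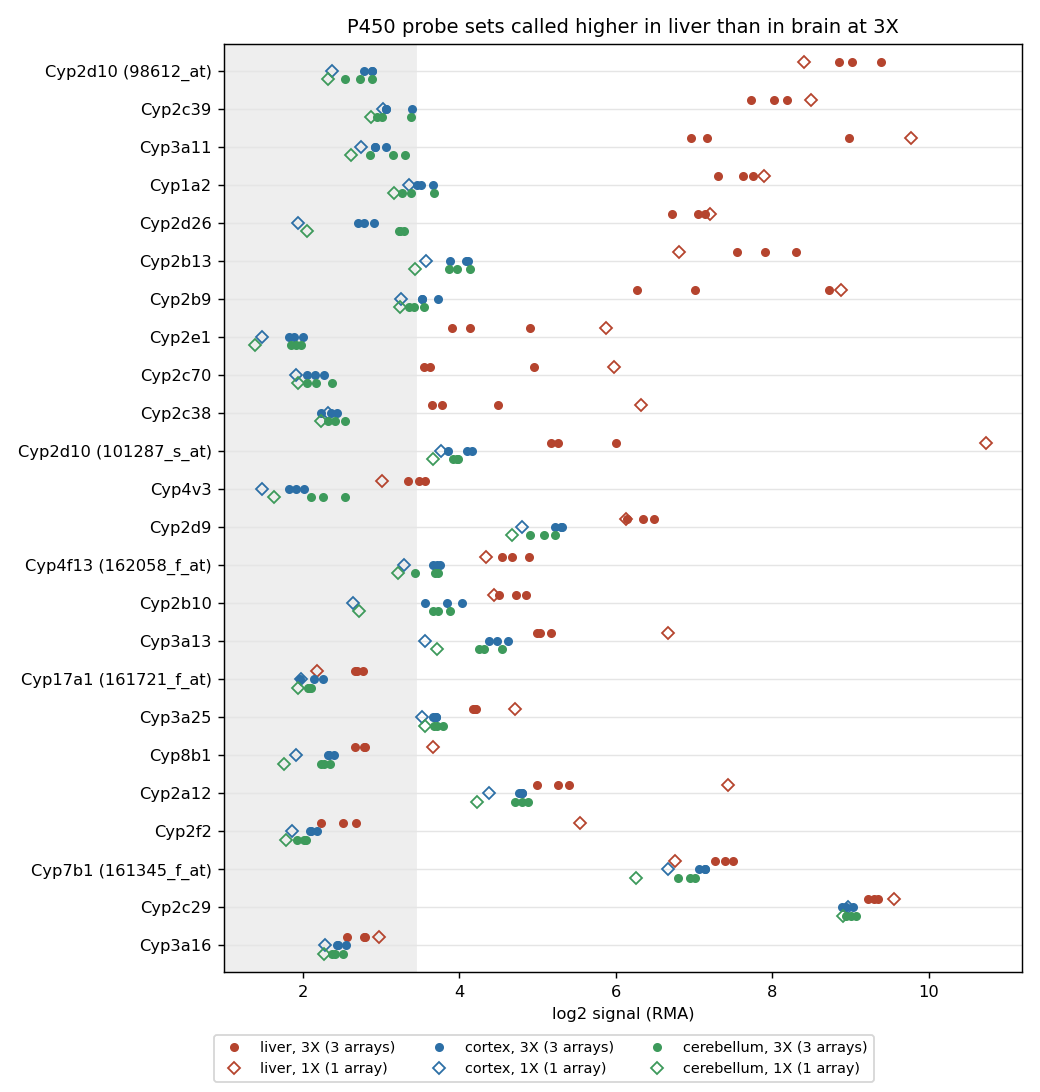
Log2 signal (x axis) of the 24 P450 probe sets called higher in liver than in brain at 3X (rows, ordered by that difference), with filled points for the 3X arrays and open diamonds for the 1X array of liver, cortex and cerebellum. The grey area is at or below the lowest array median of 3.45, and Cyp2d10 (_at) at the top stands at 8.85 to 9.39 on the 3X liver arrays with all brain arrays in the grey area.

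The Cyp2d subfamily, whose human counterpart metabolises many drugs, was called higher in liver in all its probe sets. Cyp2d10 (_at) had signals of 9.02, 8.85 and 9.39 on the 3X liver arrays and 8.41 at 1X, against 2.89, 2.89 and 2.78 in cortex and 2.89, 2.54 and 2.73 in cerebellum at 3X. All brain values were dim, including 2.37 in cortex and 2.32 in cerebellum at 1X. The difference at 3X was 6.30 ± 0.12 (SE over 9 arrays; limma adjusted p = 1.02e-10). Cyp2d26 read 7.05, 6.72 and 7.14 in liver at 3X and 7.21 at 1X, against 2.71 to 3.29 over the 6 brain arrays at 3X and 1.94 and 2.05 in cortex and cerebellum at 1X. It was higher in liver by 3.94 ± 0.10 (limma adjusted p = 8.23e-10), with dim brain values throughout. Cyp2d9, known in mice as a male-predominant testosterone hydroxylase, had 6.14, 6.35 and 6.49 in liver at 3X and 6.13 at 1X. Its brain signals were not dim, at 4.91 to 5.31 on the 3X arrays, 4.81 in cortex at 1X and 4.68 in cerebellum at 1X. Liver was 2.22-fold higher (1.15 ± 0.09; limma adjusted p = 9.37e-06), and no array of liver overlapped with brain.

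These 3 genes lie on chromosome 15. The windows before their start sites are shown because all were called higher in liver, by differences of unlike size, with a pair of the Cyp2c subfamily and Cyp1a2 beside them. Each holds the last 100 bases before the start site, from RefSeq on GRCm38.p6, 5′ to 3′ on the strand of the gene. Capitals mark the letters TATAAA (as in a TATA box), AGGTCA (as in a half-site of nuclear receptors) and GTTAAT (as in a half-site of HNF1), on either strand.
Cyp2d9, chr15:82452277-82452376, plus strand: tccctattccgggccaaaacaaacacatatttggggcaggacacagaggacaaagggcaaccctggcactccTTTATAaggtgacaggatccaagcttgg
Cyp2d10, chr15:82407195-82407294, minus strand: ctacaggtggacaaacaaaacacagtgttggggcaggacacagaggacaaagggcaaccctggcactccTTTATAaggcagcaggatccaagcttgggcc
Cyp2d26, chr15:82794246-82794345, minus strand: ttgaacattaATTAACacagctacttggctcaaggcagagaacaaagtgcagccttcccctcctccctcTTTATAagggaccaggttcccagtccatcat
Cyp2c38, chr19:39463076-39463175, minus strand: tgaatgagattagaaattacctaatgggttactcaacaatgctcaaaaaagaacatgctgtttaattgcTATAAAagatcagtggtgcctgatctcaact
Cyp2c70, chr19:40187287-40187386, minus strand: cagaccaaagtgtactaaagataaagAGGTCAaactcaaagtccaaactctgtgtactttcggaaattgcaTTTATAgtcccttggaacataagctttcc
Cyp1a2, chr9:57683656-57683755, minus strand: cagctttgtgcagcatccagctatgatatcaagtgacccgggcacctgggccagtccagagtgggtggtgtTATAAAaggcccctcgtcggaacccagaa

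All 6 windows, a choice and not a sample of the called members, held TATAAA on either strand, starting 28 to 31 bases before the start site. Cyp2c38 and Cyp1a2 held it as read on the strand of the gene. Cyp2d9, Cyp2d10, Cyp2d26 and Cyp2c70 held it on the other strand, printed as TTTATA. Cyp2d9 and Cyp2d10 shared an unbroken run of 51 bases around it, while the longest run either shared with Cyp2d26 was 10 bases. Cyp2d26 also had GTTAAT at 90 bases and Cyp2c70 AGGTCA at 74 bases before the start. RefSeq promoters were matched for 32 of the 40 genes, 35 windows in all. Within 250 bases before the start, TATAAA was found on either strand in 14 of the 35, against 12.4% of 32851 mouse promoters. Of the 23 windows of members called higher in liver, 12 held it. Of the 35 windows, AGGTCA was found in 12 (14.0% of all promoters) and GTTAAT in 1 (6.43%). A match is a description of the letters and shows no binding.

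Cyp2c enzymes, which oxidise arachidonic acid, retinoids and drugs, were called higher in liver in all 4 probe sets. Cyp2c39, an enzyme of retinoic acid turnover, had 8.02, 7.73 and 8.19 in liver at 3X and 8.50 at 1X, against 3.07, 3.07 and 3.40 in cortex and 2.95, 3.01 and 3.38 in cerebellum at 3X, with 3.03 and 2.88 in cortex and cerebellum at 1X. Its difference was 4.83 ± 0.13 (limma adjusted p = 1.80e-09), and the brain values were dim. Cyp2c70, which makes muricholic acids in mice, read 3.55, 3.63 and 4.96 in liver at 3X and 5.98 at 1X, against 2.06 to 2.38 in brain at 3X and 1.91 and 1.94 in cortex and cerebellum at 1X. It differed by 1.86 ± 0.26 (limma adjusted p = 0.000468), or by 1.41 ± 0.10 without liver replicate 3. Cyp2c38 had 3.78, 3.65 and 4.50 in liver at 3X and 6.32 at 1X, against 2.23 to 2.54 in brain at 3X and 2.33 and 2.24 in cortex and cerebellum at 1X. Its difference of 1.59 ± 0.16 (limma adjusted p = 4.44e-05) was 1.33 ± 0.09 without liver replicate 3. Cyp2c29 differed from these, since its signal was high in all 3 tissues, with 9.22 to 9.36 in liver, 8.90 to 9.03 in cortex and 8.95 to 9.07 in cerebellum at 3X. Liver was higher by 0.30 ± 0.07 (1.24-fold; limma adjusted p = 0.00900), but after quantile normalization the adjusted p was 0.0570.

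Cyp3a11, the main enzyme of its subfamily in adult mouse liver and a target of the pregnane X receptor, had 7.17, 6.97 and 8.98 in liver at 3X and 9.77 at 1X. Its brain values were dim, at 2.86 to 3.31 at 3X, 2.75 in cortex at 1X and 2.62 in cerebellum at 1X. The difference was 4.66 ± 0.36 (limma adjusted p = 5.91e-06) and 4.02 ± 0.12 without liver replicate 3. The SD over the 3X liver arrays was 1.11, against 0.08 in cortex and 0.23 in cerebellum, so that the shared spread of the fit understates that of liver. Cyp3a13, known from intestine as well as liver, differed by 0.64 ± 0.09 and Cyp3a25 by 0.49 ± 0.06 (limma adjusted p = 0.000497 and 0.000228). Cyp3a16, best known from fetal liver, was called at a dim signal (0.26 ± 0.08; limma adjusted p = 0.0341) and was not called in 6 of the 9 fits that left out a 3X array.

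Among Cyp2b genes, which the xenobiotic receptor CAR regulates, the difference was 3.91 ± 0.14 for Cyp2b13, 3.83 ± 0.40 for Cyp2b9 and 0.91 ± 0.12 for Cyp2b10, all called. Cyp2b13 had 7.91, 7.55 and 8.30 in liver at 3X and 6.81 at 1X, against 3.87 to 4.14 in brain at 3X and 3.58 and 3.44 in cortex and cerebellum at 1X. No brain array was dim at 3X, which makes a 15.0-fold difference (limma adjusted p = 1.37e-08). Cyp2b9, known in mice as female-predominant in liver, had 6.28, 7.02 and 8.73 in liver at 3X and 8.88 at 1X. Its brain signals were 3.36 to 3.73 at 3X and 3.26 and 3.24 in cortex and cerebellum at 1X. The 3X liver arrays spread over more than 2 log2 units (SD 1.26), yet the lowest was above every brain array (limma adjusted p = 5.38e-05). Without liver replicate 3 the Cyp2b9 difference was 3.13 ± 0.16. Cyp2b10, the phenobarbital-inducible member, had 4.51, 4.85 and 4.73 in liver at 3X and 4.44 at 1X, against 3.56 to 4.04 in brain at 3X (1.88-fold; limma adjusted p = 0.000234). Cyp2b19, an enzyme known from mouse skin, was dim on all 12 arrays and not called (0.02 ± 0.07).

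Cyp1a2, which oxidises caffeine and aromatic amines, had 7.75, 7.31 and 7.63 in liver at 3X and 7.90 at 1X, against 3.46 to 3.67 in cortex and 3.27 to 3.68 in cerebellum at 3X and 3.36 and 3.17 at 1X (4.07 ± 0.12; limma adjusted p = 2.24e-09). The other members of its family gave no call: 2 probe sets each of Cyp1a1, the classic target of the aryl hydrocarbon receptor, and of Cyp1b1, a largely extrahepatic enzyme, differed by 0.00 to 0.11. Cyp2e1, the ethanol-oxidising P450, had 4.14, 3.91 and 4.90 in liver at 3X and 5.88 at 1X, against 1.83 to 2.00 in brain at 3X and 1.48 and 1.39 in cortex and cerebellum at 1X. It differed by 2.41 ± 0.18 (limma adjusted p = 3.84e-06) and by 2.12 ± 0.09 without liver replicate 3. Cyp2a12 (0.43 ± 0.09) and Cyp2f2 (0.42 ± 0.09), an enzyme known for naphthalene bioactivation in lung, were called as well, with limma adjusted p of 0.00686 and 0.00935. Cyp2f2 was dim on every 3X array of liver and was no longer called when all 12 arrays entered an additive fit (adjusted p = 0.0659). Cyp2j5 (0.11 ± 0.06), Cyp2j6 (0.07 ± 0.08) and Cyp2s1 (-0.06 ± 0.09) were not called.

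In family 4, the fatty acid hydroxylase Cyp4v3 had 3.35, 3.49 and 3.57 in liver at 3X and 3.02 at 1X, against 1.83 to 2.02 in cortex and 2.11 to 2.54 in cerebellum at 3X and 1.48 and 1.64 at 1X (1.36 ± 0.10; limma adjusted p = 4.45e-06). Liver and brain did not overlap, although 1 of the 3X liver arrays was itself dim. A Cyp4f13 probe set (_f_at) differed by 1.04 ± 0.10 (limma adjusted p = 2.12e-05), while the gene's _at probe set did not pass the test (0.08 ± 0.09; 0.631). The PPARα targets Cyp4a10 (0.16 ± 0.06) and Cyp4a14 (0.05 ± 0.08) were dim on all arrays and not called, and neither were Cyp4a12b (0.30 ± 0.13) and Cyp4b1 (0.22 ± 0.12). Cyp4a12b was called without liver replicate 3 (adjusted p = 0.00505).

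Bile acid and sterol enzymes differed little at 3X. Cyp8b1, the sterol 12α-hydroxylase that makes cholic acid, was higher in liver by 0.43 ± 0.07 (limma adjusted p = 0.000918) at dim signals of 2.80, 2.67 and 2.78 in liver, against 2.23 to 2.40 in brain. Cyp7a1, the rate-limiting enzyme of bile acid synthesis, had 2.53, 2.73 and 2.91 in liver at 3X and 3.56 at 1X, against 2.30 to 2.66 in brain at 3X, and overlapped (0.26 ± 0.09; limma adjusted p = 0.0788). It was called without liver replicate 1 and in the additive fit of all 12 arrays. For the oxysterol hydroxylase Cyp7b1, _f_at differed by 0.37 ± 0.08 (limma adjusted p = 0.00618) and _at by 0.07 ± 0.09 (0.681). Their mean was not called (adjusted p = 0.0524). The cholesterol synthesis enzyme Cyp51 had 6.78, 6.63 and 7.24 in liver at 3X and 7.61 at 1X, against 6.28 to 6.77 in brain at 3X, which overlapped (0.37 ± 0.14; limma adjusted p = 0.0990). It was called with a replicate block and in the additive fit of all 12 arrays.

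Enzymes of steroid hormone synthesis are known from adrenal and gonad. Cyp21a1, the 21-hydroxylase, had 7.23, 6.86 and 6.94 in liver at 3X, against 6.59 to 6.93 in brain, and was not called (0.28 ± 0.11; limma adjusted p = 0.105). Cyp11a1, the side-chain cleavage enzyme, was dim on all 12 arrays with a difference of 0.01 ± 0.11. For the 17α-hydroxylase Cyp17a1, _f_at was called (0.61 ± 0.08; limma adjusted p = 0.000226) and _at was not (0.06 ± 0.09; 0.701), and both were dim on every array. Of the vitamin D enzymes, both Cyp24a1 probe sets (0.04 each) and Cyp27b1 (0.08) were not called, nor was the retinoic acid hydroxylase Cyp26a1 (0.02), with adjusted p of 0.571 or higher.

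The single 1X arrays gave a larger tissue difference than the 3X arrays for many members. The 1X difference has no replicates and was not tested. At 1X, 23 of the 47 probe sets were at least 1 log2 unit higher in liver than in the mean of both brain regions, against 6.54% of all probe sets. At 3X there were 14 (2.33% of all). For 13 members (5.06% of all) the 3X difference was at least 1 unit smaller than that at 1X, and for none (3.73% of all) was it at least 1 unit larger. The differences at 3X and 1X of the 47 members, which share arrays, had a Pearson's r of 0.842 (all probe sets 0.79). Their Spearman's rho was 0.873 (all probe sets 0.574). The gap ran from near 0 to several units, since Cyp2d10 (_at) had 6.30 at 3X and 6.06 at 1X, while its second probe set _s_at had 1.48 and 7.01. Cyp2f2 stood at 0.42 at 3X and 3.72 at 1X, and Cyp2a12 at 0.43 and 3.14.

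**Figure D2:**
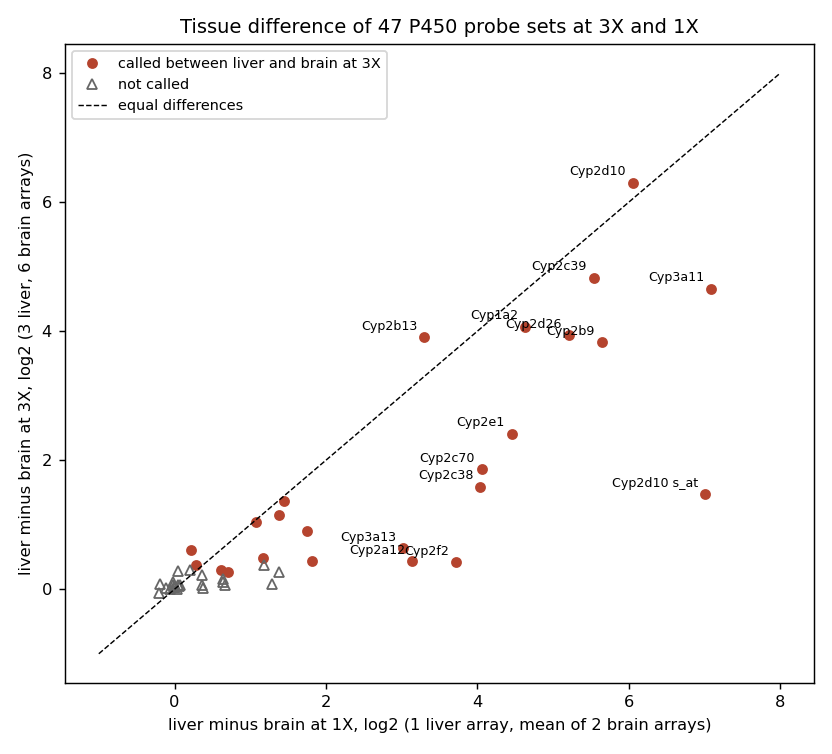
Liver minus brain at 3X (y axis, log2) against the same at 1X (x axis, log2) for the 47 P450 probe sets, with filled points for those called at 3X and the dashed line for equal differences. Cyp2d10 (_at) and Cyp2b13 lie above the line, at 6.06 and 3.30 on the x axis, and the _s_at probe set of Cyp2d10 lies farthest below it.

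The change between procedures depended on tissue for 11 of the 47 P450 probe sets (limma F test of the interaction), 23.4% against 10.4% of all probe sets. Of the 238 probe sets at least 3 log2 units higher in liver than in brain at 1X, 63.0% were called so. Of the 14 P450 probe sets with such a difference, 50.0% were. That group was chosen on the same 1X arrays. In all 11 called P450 probe sets the 1X liver array was above every 3X liver array. Among all 47 members it was above for 22 and below for 23, against 26.6% and 54.6% of all probe sets. In the 11, the 3X minus 1X difference of liver, from -5.25 to -0.24, was below that of both brain regions, from -0.07 to 1.20. With a single 1X array per tissue, its spread was taken to be that of the 3X arrays. The _s_at probe set of Cyp2d10 read 5.17, 5.26 and 6.0 in liver at 3X against 10.73 at 1X. In cortex it read 3.86, 4.10 and 4.16 at 3X against 3.77 at 1X, and in cerebellum 3.99, 3.97 and 3.92 against 3.66 (limma adjusted p = 1.18e-05). Cyp2f2 read 2.68, 2.24 and 2.52 in liver at 3X against 5.55 at 1X, so that all 3X values were dim and the 1X value was not, while its brain values lay between 1.79 and 2.19 on all 8 arrays (limma adjusted p = 1.06e-05).

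Cyp2a12 had 5.00, 5.41 and 5.27 in liver at 3X against 7.44 at 1X, while cortex stood 0.42 and cerebellum 0.57 above the 1X value (limma adjusted p of the F test = 2.53e-05). Cyp3a13 had 5.18, 5.04 and 4.99 in liver at 3X against 6.67 at 1X, but 4.38 to 4.62 in cortex at 3X against 3.57 at 1X (5.11e-05). The 3X signal was also below 1X in liver and above it in both brain regions for Cyp2e1, Cyp8b1, Cyp7a1 and Cyp3a25. In liver, cortex and cerebellum the differences were -1.56, 0.43 and 0.53 for Cyp2e1 and -0.91, 0.44 and 0.52 for Cyp8b1. They were -0.84, 0.42 and 0.16 for Cyp7a1 and -0.52, 0.16 and 0.17 for Cyp3a25. Cyp2c38 stood at -2.35 in liver and 0.19 in cerebellum. In cortex Cyp2c38 stood at 0.01, with the 1X value inside the range of the 3X arrays. For Cyp2e1 the adjusted p was 0.146 after quantile normalization. Cyp4f13 (_at) had 3.19, 2.87 and 3.07 in liver at 3X against 4.29 at 1X and near equal brain values, but its call was lost as a mean of both Cyp4f13 probe sets (adjusted p = 0.0809). Cyp2d26 differed from the rest, since liver stood at -0.24 and the brain regions, dim throughout, at 0.86 and 1.20.

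**Figure D3:**
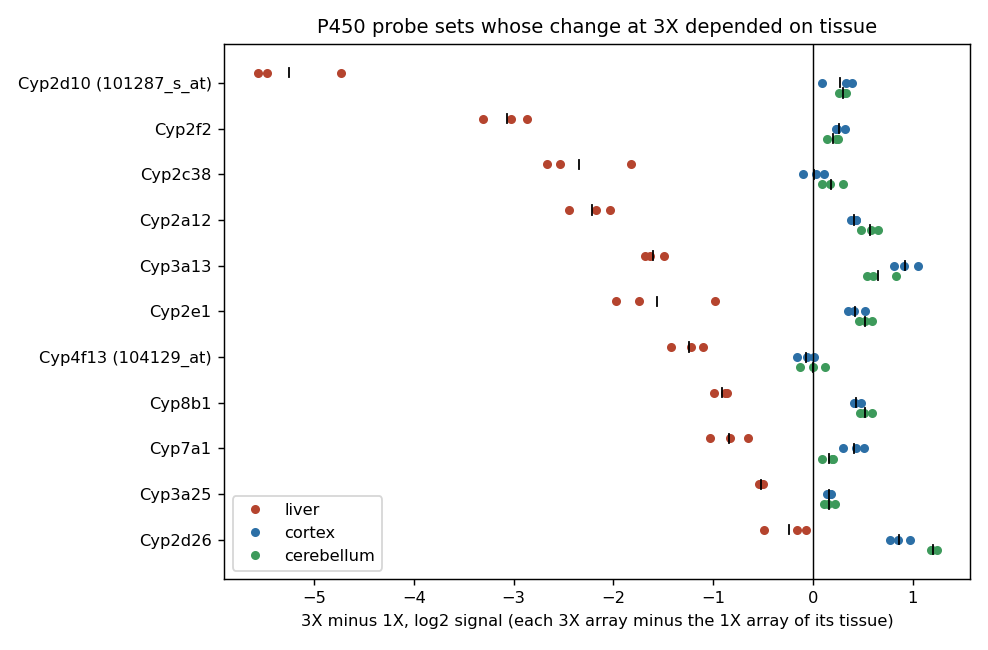
Each 3X array minus the 1X array of its tissue (x axis, log2 signal) for the 11 P450 probe sets whose change depended on tissue, in liver, cortex and cerebellum, with black ticks at the means of 3 arrays. All liver points lie below 0, with means from -5.25 to -0.24, and the brain means lie between -0.07 and 1.20.

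Of the 12 hepatocyte marker genes, the F test called 4, against 10.4% of all probe sets. Cyp3a11 (adjusted p = 0.145) and Cyp2b9 (0.499), whose 3X liver arrays spread most, were not called but were without liver replicate 3, at 7e-06 and 0.000287.

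Over all 3 tissues together, 18 of the 47 P450 probe sets rose at 3X and none fell, while 56.9% of all probe sets were called, 37.5% as rises and 19.5% as falls. The median change was 0.06 over the members and 0.12 over all probe sets. After quantile normalization 15 members rose and 2 fell, Cyp4a10 and Cyp4f13 (_at), and 13 of the 18 were still called. Without the 1X cortex array 14 rose and 5 fell, and without the 1X cerebellum array 15 rose and 4 fell. Cyp2b10 rose by 0.82 ± 0.16 (SE, 9 3X against 3 1X arrays; limma adjusted p = 0.00152). Its cortex signals were 3.84, 4.04 and 3.56 at 3X against 2.65 at 1X, and its cerebellum signals 3.73, 3.89 and 3.67 against 2.72, whereas liver had 4.51, 4.85 and 4.73 against 4.44. With the 3 tissues as units it was not called (adjusted p = 0.0574). Cyp2b13 rose by 0.71 ± 0.16 (0.00322), with the largest step in liver, at 7.91, 7.55 and 8.30 at 3X against 6.81 at 1X.

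Cyp7b1 (_f_at) rose by 0.58 ± 0.07 (limma adjusted p = 8.95e-05), with 7.27, 7.40 and 7.50 in liver at 3X against 6.76 at 1X, 7.07 to 7.14 in cortex against 6.67 and 6.80 to 7.02 in cerebellum against 6.26. Its 1X arrays lay below all 3X arrays in each tissue, but the mean of both Cyp7b1 probe sets was not called (adjusted p = 0.101). Cyp2d10 (_at, 0.52 ± 0.11), Cyp4v3 (0.52 ± 0.09), Cyp4a12b (0.53 ± 0.12) and Cyp2d26 (0.61 ± 0.21) rose as well, with limma adjusted p from 0.00101 to 0.0261. Cyp4a12b, a fatty acid hydroxylase, had 4.97, 5.05 and 4.45 in liver at 3X against 4.24 at 1X, 4.60, 4.78 and 4.52 in cortex against 4.08, and 4.48, 4.26 and 4.52 in cerebellum against 3.97. Each 1X array was below all 3X arrays of its tissue. Cyp2b19 rose by 0.49 ± 0.07 (0.000184), at 3.03 to 3.24 in liver at 3X against 2.56 at 1X, 2.97 to 3.16 in cortex against 2.71, and 3.09 to 3.19 in cerebellum against 2.62, all dim. After quantile normalization Cyp4v3 stood at 0.26 and was not called (adjusted p = 0.0882). Cyp2d26 stood at -0.24 in liver, below 1X on every 3X array, and at 0.86 and 1.20 in cortex and cerebellum. Its call was lost without the 1X cortex array, without the 1X cerebellum array and with tissues as units. In cortex the 1X array was below all 3X arrays for 36 members and above them for none, against 51.9% and 29.0% of all probe sets. In cerebellum it was below for 40 and above for 1, against 55.2% and 29.4%. Most of these values were dim, as 32 members were dim on both 1X brain arrays. Among all 5976 probe sets dim there, the 1X cortex array was below all 3X arrays for 62.8% and the 1X cerebellum array for 66.4%, against 78.1% and 90.6% of the 32 members.

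For 7 genes with 2 probe sets each, the sets could be followed side by side. The change from 1X differed in sign within Cyp2d10, where liver at 3X minus 1X was 0.68 for _at and -5.25 for _s_at. Within Cyp4f13 liver stood at 0.37 for _f_at and at -1.25 for _at, and within Cyp7b1 at 0.63 for _f_at and -0.68 for _at. For Cyp1a1, one probe set rose by 0.49 ± 0.08 (limma adjusted p = 0.000425), dim at 1X and not at 3X in every tissue, while the other was not called (-0.03 ± 0.06; 0.708). The probe sets of Cyp1b1 and Cyp24a1 were not called in any comparison. Probe sets ending in _s_at, _f_at or _r_at hold less specific probes, often common to several transcripts, and made up 11 of the 47. Of these, 6 were called higher in liver than in brain at 3X, and of the 36 without it 18.

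**Figure D4:**
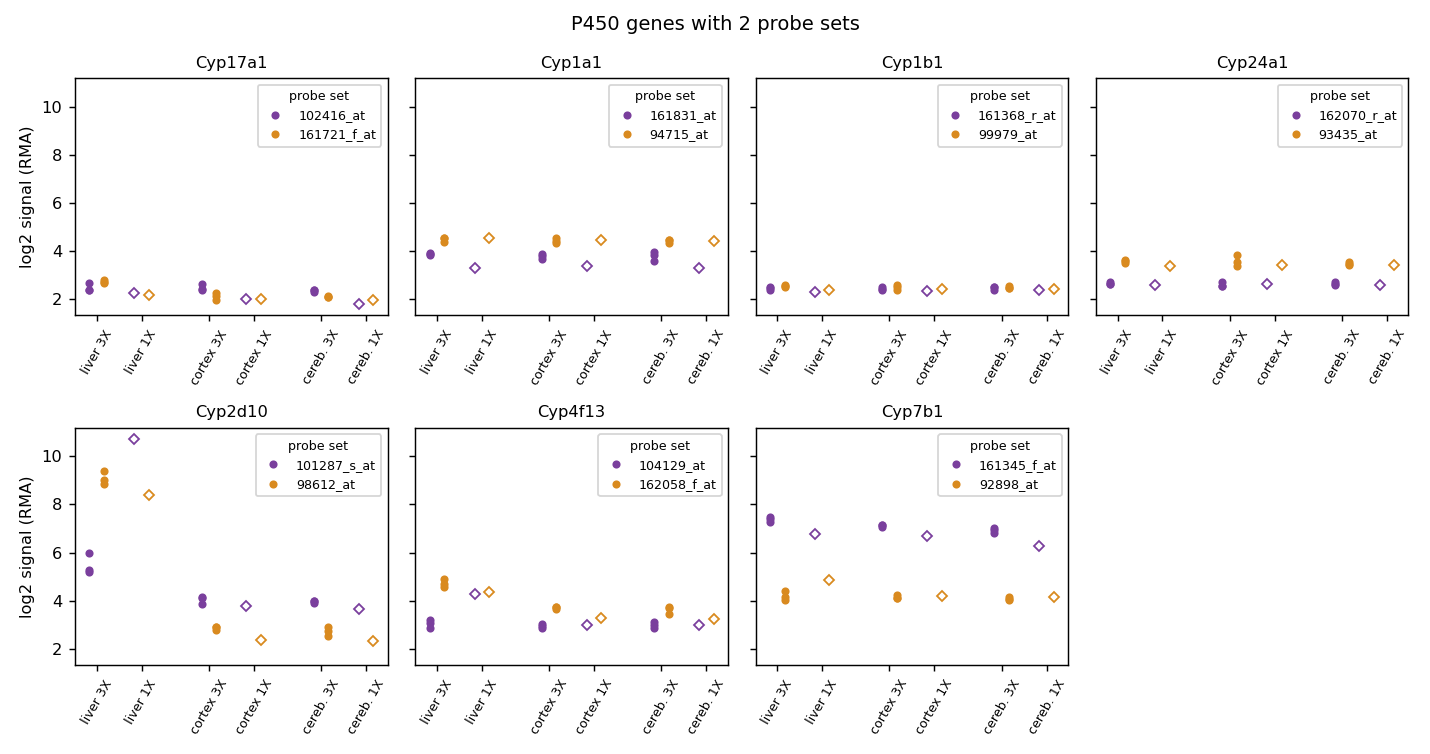
Log2 signal (y axis) of both probe sets of 7 P450 genes in liver, cortex and cerebellum, with filled points for the 3 arrays at 3X and an open diamond for the array at 1X. In liver, the _s_at probe set of Cyp2d10 stands at 5.17 to 6.0 at 3X and 10.73 at 1X, and _at at 8.85 to 9.39 and 8.41.

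Cortex and cerebellum did not differ in any P450 probe set at an adjusted p under 0.05 in limma, where 1.06% of all probe sets were called. At an unadjusted p under 0.05 there were 3, against 8.60% of all probe sets, and 9 members had no overlap between the 3 cortex and 3 cerebellum arrays, against 16.4%. Those 3 were lower in cortex. Cyp4b1, known from lung and kidney, had 2.40, 2.27 and 2.29 in cortex and 2.79, 2.92 and 2.93 in cerebellum at 3X, and 1.98 in cortex and 2.22 in cerebellum at 1X, all dim (-0.56 ± 0.14; limma adjusted p = 0.134). Cyp2d26 had 2.71, 2.91 and 2.79 in cortex and 3.29, 3.23 and 3.24 in cerebellum at 3X, and 1.94 in cortex and 2.05 in cerebellum at 1X (-0.45 ± 0.11; 0.113). Cyp4v3 stood at -0.38 ± 0.12 (0.256).

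In a fit of only the 6 arrays of both brain regions, or without liver replicate 3, 2 members were called, Cyp2d26 and Cyp4b1, and without liver replicate 2 Cyp2d26 alone. Of the 20 kidney genes measured, 6 were called lower in cortex, 14 were not called and none was called higher. Over all probe sets 0.628% were called lower in cortex and 0.435% higher. The kidney genes had a median difference of -0.15 at 3X and -0.46 at 1X. Their mean level per array was 3.38 to 3.43 in cortex and 3.90 to 3.97 in cerebellum at 3X, and 3.15 and 4.01 at 1X. Of the 20 differences at 3X, those of Napsa (-3.43) and Hao2 (-1.97) were the largest. Kap, the kidney androgen-regulated protein gene, had 4.92, 5.15 and 4.83 in cortex and 5.87, 6.13 and 6.03 in cerebellum at 3X. The part of kidney RNA in the P450 differences was not tested.

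**Figure D5:**
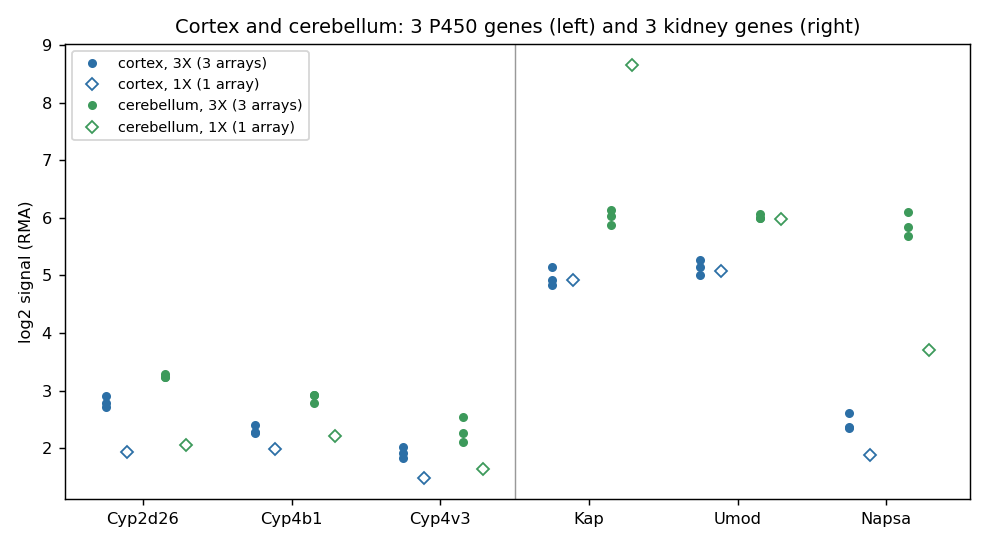
Log2 signal (y axis) in cortex and cerebellum of the 3 P450 genes with the lowest p between them (left of the line) and of 3 kidney genes (right), with filled points for 3 arrays at 3X and open diamonds for the array at 1X. The cerebellum points of Cyp4b1 at 3X, 2.79 to 2.93, are above those of cortex, 2.27 to 2.40, as are those of Kap.

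Partners of the P450 system also differed between tissues. Of 9 measured electron transfer and membrane partners 5 were called higher in liver than in brain at 3X and none lower. The shares over all probe sets were 8.17% higher and 12.3% lower. Cytochrome b5 (Cyb5a), which donates the second electron to some P450s, had 6.67, 6.50 and 8.01 in liver, against 4.77, 4.17 and 4.90 in cortex and 4.47, 4.85 and 5.05 in cerebellum (2.36; limma adjusted p = 0.000268). Its reductase Cyb5r3 differed by 1.47, the microsomal epoxide hydrolase Ephx1 by 1.14 and adrenodoxin (Fdx1) by 0.46, all called. At 3X the list of electron transfer and membrane partners had 5 falls and 1 rise relative to 1X. Of all probe sets 19.5% fell and 37.5% rose. Pgrmc1, a heme-binding membrane protein, stood at -2.02 and Fdx1 at 0.95. Heme synthesis and breakdown gave 2 of 11 higher in liver, namely Alad (0.85) and Alas1 (0.35), the rate-limiting enzyme of hepatic heme synthesis. Alas1 had 6.63, 6.29 and 6.65 in liver at 3X against 8.92 at 1X and depended on tissue (limma adjusted p of the F test = 0.000920).

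Regulators of P450 genes gave 10 of 37 higher in liver and none lower, with a median of 0.14. Over all probe sets 8.17% were higher and 12.3% lower. The growth hormone receptor Ghr, through which sex-specific P450 patterns are set in mouse liver, differed by 2.29 (limma adjusted p = 0.00144) and Nr1i3, which encodes CAR, by 1.59 (1.12e-05). Ppara, the receptor that activates Cyp4a genes, differed by 0.85 and Cebpa by 0.89. Nr1i2, which encodes the pregnane X receptor, was not called (0.12; 0.443), nor were Ahr (0.19; 0.107) and Hnf4a (0.02; 0.883). Hnf4a was dim on every array and Ahr on every 3X array. The dependence on tissue was called for 11 of the 37 regulators, against 10.4% of all probe sets. Among them were Cebpa, with 7.35, 7.19 and 7.04 in liver at 3X against 9.40 at 1X, and Hnf4a, with 2.57, 2.68 and 2.72 against 3.45.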

How the data were processed

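Biotin-labelled RNA was hybridised to 12 arrays, 3 per tissue at 3X and 1 per tissue at 1X. Per the submitters' processing notes, the authors used RMA, and the deposited table holds 1 log2 signal for each probe set and array. The RMA version is not given in the sources used here, nor whether 1 run covered all arrays. The log base was read from the values, as the highest (14.46) exceeds what natural logarithms of scanner values can reach (11.09). The 66 manufacturer controls were left out. Genes were named from the platform annotation. No array was a copy of another.

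Tests were two-sided moderated tests of limma 3.58.1 under R 4.3.3. Tissue contrasts came from the 9 3X arrays with a shared spread, the effect of 3X against 1X from an additive model with tissue over 12 arrays, and its tissue dependence from a moderated F test over 6 group means. A gene outside the P450 group was read from its brightest probe set. All arrays, with brain often as a range, are given for the 12 largest called tissue differences, the 8 largest called 3X effects and the 4 largest F values, and for others where the text turns on them. The scripts were tested on simulated data. Members, lists and tests were chosen with earlier results of these data known. The number of arrays limits the precision. Alternatives were other scalings, filters, a mean per gene, other eBayes settings, a replicate block, fits of fewer or more arrays and leave-one-out fits. Those without a 1X array were added after the data were seen.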

Additional observations from a re-analysis of the deposited data

Results flagged for a closer look

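The change of signal between 3X and 1X differed between liver, cortex and cerebellum for 11 P450 probe sets by the limma F test of the interaction. The adjusted p was 1.06e-05 for Cyp2f2, 1.18e-05 for the _s_at probe set of Cyp2d10, 2.53e-05 for Cyp2a12 and 5.11e-05 for Cyp3a13. It was 0.000198 for Cyp8b1, 0.00169 for Cyp2c38, 0.00324 for Cyp2d26 and 0.00375 for the _at probe set of Cyp4f13. Cyp7a1 had 0.00547, Cyp2e1 0.00894 and Cyp3a25 0.0120. In all 11 the 1X value that sets the direction in liver comes from a single array.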

How the results depend on the processing

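The 24 calls between liver and brain stayed between 23 and 25 when a 3X array was left out, the 18 rises at 3X became 18 or 19 and the 11 calls of tissue dependence 11 to 15. Calls between cortex and cerebellum ranged from 0 to 2. They were 2 with the 6 cortex and cerebellum arrays alone. Without a 1X array, an alternative added after the data were seen, 19 to 21 members were called for 3X against 1X. Among the 25 members at or above the median level of all probe sets, 10 rose at 3X and 5 depended on tissue, fewer because fewer were tested. With a replicate block the counts were 25 between liver and brain, 0 between cortex and cerebellum, 18 for 3X against 1X and 15 for tissue dependence. Same-numbered 3X arrays of different tissues had correlations of deviations from -0.0991 to 0.342. The replicate 3 arrays of liver, cortex and cerebellum did correlate best with each other, at 0.294 to 0.342. Pairs of a replicate 3 array with another number lay between -0.359 and 0.0788. Whether the replicate 3 arrays share a processing step was not tested. Not every other array correlated best with its own number, so the numbers were not taken to pair the arrays. The remaining alternatives kept each count within 1.5 times.

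The direction of 3X against 1X turned in 7 cases where the main or the alternative fit was called. Small changes called in neither fit could turn as well. For Cyp1b1 (_r_at) the change was 0.11 in the main fit and -0.04 after quantile normalization. Cyp2c29 stood at 0.25 after quantile normalization and was then called. As the mean of both probe sets, Cyp2d10 stood at -0.52, Cyp4f13 at -0.02 and Cyp1a1 at 0.23. Over the 3 fits that each left out a 1X array, Cyp2a12 ranged from -0.90 to 0.49, Cyp7a1 from -0.34 to 0.29 and Cyp3a13 from -0.47 to 0.79, with the upper value of each without the 1X liver array. The cause was not tested, except that a mean of probe sets with opposite changes takes the sign of the larger.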

Other observations

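A further 7 probe sets carried several P450 symbols and name no single gene. At 3X 5 of them were called higher in liver than in brain, with differences from 0.15 to 4.61 over the 7 (8.17% of all probe sets were called higher). For 5 the change between 3X and 1X depended on tissue, against 10.4% of all probe sets. The largest step was -3.92 in liver, with a mean of 5.87 at 3X and 9.79 at 1X.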
